A study of Mus musculus with 16 samples.

Results

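The interferon response genes described here are a list of 34 mouse genes that cells switch on when interferon reaches them. The members were taken by gene symbol, and a gene with several probe sets would be read from the one with the highest mean over the 16 arrays. Of the 34 genes, 33 were measured, each by 1 probe set, among 19505 genes with a symbol and 22206 probe sets tested. No probe set matched Ifi44.

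The arrays measured total RNA from the mouse intervertebral disc, the pad between vertebrae, in 4 groups of 4 arrays. The nucleus pulposus (NP) is its soft centre and the annulus fibrosus (AF) the fibrous ring around it. Control mice (CTR) carried Sox9fl/fl, and conditional knockouts (cKO) carried AcanCreERT2 Sox9fl/fl, so that every mouse had the floxed Sox9 alleles. The 8 mice, 4 of each genotype, were female and between 3 and 4 months old. The labels name tamoxifen, given on 2 days in a row, for the cKO mice only, with tissue taken 5 days after the first injection. Cre, tamoxifen and loss of Sox9 thus cannot be told apart here. The Cre is driven from the aggrecan gene, so it acts in cells that express aggrecan. NP and AF of one mouse number came from the same animal, and each array pooled that animal's lumbar and tail discs.

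Interferons are secreted proteins that bind receptors on the cell surface, and those of type I activate the kinases Jak1 and Tyk2. These phosphorylate transcription factors, among them Stat2, which joins Irf9 in a complex that binds the interferon-stimulated response element in target promoters. Type II interferon acts mainly through the gamma-activated sequence instead. The targets sense, sequester or degrade viral RNA, block entry at membranes, and cut proteins for antigen presentation. The response is best known from infected and immune cells, and many tissues express part of it at a low level without infection.

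Sox9 itself was lower in cKO by 6.51 in NP and 4.68 in AF on the log2 scale (n = 4 per group; limma, adjusted p = 3.11e-10 and 1.05e-07), as the labels would have it. The NP and notochordal markers had a mean log2 signal of 13.58 to 13.80 in NP CTR and 12.32 to 13.00 in AF CTR, and AF and tendon markers 7.03 to 7.66 against 10.90 to 11.95. Arrays of one group correlated with r between 0.963 and 0.983 over all probe sets. The AF arrays differed in markers of other cells. The mean over 16 neutrophil and granulocyte markers ran from 6.28 to 10.59 in AF CTR and from 8.77 to 12.16 in AF cKO, with AF CTR 1 and AF cKO 3 highest in their groups. Skeletal muscle markers were high in AF cKO 2 (9.66) and AF cKO 4 (9.03) against 6.32 to 7.17 in AF CTR. In bulk tissue, fewer cells of a type and less RNA per cell cannot be told apart.

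The promoters were searched for the sequences through which interferon signals reach a gene. RefSeq promoter windows on build GRCm38.p6, running from 250 bases before to 50 bases after a gene's start, were given for 26 of the 34 genes. The core of the interferon-stimulated response element, searched as GAAA, any 2 bases and GAAA again on either strand, occurred in the windows of 13 of these 26 genes (50.0%). It occurred in the windows of 3.99% of the 27025 genes in the table, and in 3.44% of its 32851 windows. The core of the gamma-activated sequence, TTCNNNGAA, which reads as the same pattern on both strands, occurred in 6 of the 26 (23.1%), in 9.55% of all genes and in 8.30% of all windows. In Bst2, Ifitm3 and Oas1a both motifs occurred. The members were named as interferon targets from the start, so these shares are a description.

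The 250 bases before the start are shown for Ifit3 and Ifit3b, which had the most negative changes in AF, and for Gbp2, which differed between the compartments. Capitals mark the response element core, which in these 3 promoters lies on the opposite strand and so reads as TTTC, any 2 bases and TTTC again.
Ifit3, chr19:34583279-34583528, plus strand: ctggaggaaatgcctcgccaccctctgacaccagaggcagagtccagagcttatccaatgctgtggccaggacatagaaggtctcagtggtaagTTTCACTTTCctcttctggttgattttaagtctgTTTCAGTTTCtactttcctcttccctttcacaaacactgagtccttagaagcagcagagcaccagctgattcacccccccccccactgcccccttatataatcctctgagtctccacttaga
Ifit3b, chr19:34607707-34607956, plus strand: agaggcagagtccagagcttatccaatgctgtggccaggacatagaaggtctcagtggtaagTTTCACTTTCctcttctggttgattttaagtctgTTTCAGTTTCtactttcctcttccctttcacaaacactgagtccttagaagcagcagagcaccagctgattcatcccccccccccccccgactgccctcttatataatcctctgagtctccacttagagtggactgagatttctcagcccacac
Gbp2, chr3:142620413-142620662, plus strand: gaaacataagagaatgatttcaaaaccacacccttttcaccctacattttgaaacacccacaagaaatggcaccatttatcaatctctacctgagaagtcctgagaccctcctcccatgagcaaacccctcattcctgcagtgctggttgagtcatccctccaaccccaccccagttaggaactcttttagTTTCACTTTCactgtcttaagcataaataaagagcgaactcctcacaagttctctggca

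Ifit3 and Ifit3b are neighbouring copies of one gene. Their promoters hold the same 2 cores in the same 30-base contexts, lying 32 bases farther from the start in Ifit3b. With the windows set 32 bases apart and no gaps, 201 of 268 overlapping bases were identical. With gaps allowed, 259 of 340 alignment columns were identical, each gap position counted as a difference. Without gaps, bases after an insertion or deletion are set against the wrong partner, so neither figure counts base changes alone. How far the probe sets of the 2 genes read each other's RNA was not tested, so their values are not treated as independent observations.

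The cores of the other members are shown in their surroundings, read on the strand of the GAAA letters, so that the element can be compared between genes of different function. Where a window held several cores, the one nearest the start is given.
Ifit1, chr19:34640794-34640823: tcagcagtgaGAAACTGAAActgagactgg
Isg15, chr4:156200865-156200894: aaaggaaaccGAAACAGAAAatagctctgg
Gbp3, chr3:142559995-142560024: agggatctggGAAATAGAAActgaaactgt
Oas1a, chr5:120907520-120907549: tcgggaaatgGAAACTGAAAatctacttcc
Oas3, chr5:120777715-120777744: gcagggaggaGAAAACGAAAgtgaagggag
Rsad2, chr12:26456553-26456582: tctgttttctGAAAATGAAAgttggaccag
Bst2, chr8:71537577-71537606: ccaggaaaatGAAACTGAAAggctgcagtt
Ifitm3, chr7:141010723-141010752: caaaattcagGAAAAGGAAActtctgagaa
Ifih1, chr2:62646206-62646233: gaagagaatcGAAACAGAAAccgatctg
The core of Stat2 lay farther away, 222 bases before the start. In Ifih1 and Ifitm3 the cores lay after the start, 32 bases in Ifih1 and 2 and 19 bases in Ifitm3. A match is only a match of letters.

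**Figure D1:**
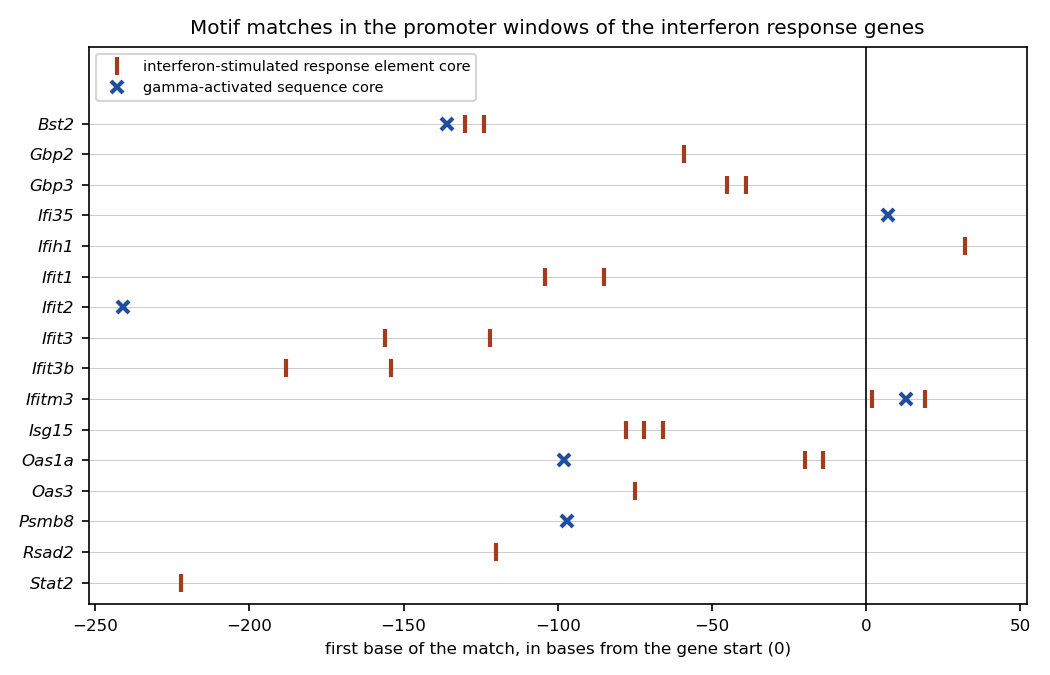
Motif matches in the promoter windows of the members that hold at least 1 match. The horizontal axis gives the first base of each match in bases from the gene start at 0, from 250 before to 50 after it. Bars mark the interferon-stimulated response element core, found in 13 genes, and crosses the gamma-activated sequence core, found in 6; both copies in Ifit3b lie 32 bases farther out than in Ifit3.

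By the stricter measure below, most members gave low signals in control mice, and so did most of all probe sets. The reference is the set of negative control probe sets on each array, whose median log2 signal ran from 6.14 to 6.59 and whose 95th percentile from 9.74 to 10.78. Only Ifit3 exceeded that 95th percentile on all 4 arrays of NP CTR, of NP cKO and of AF CTR, and no member did so in AF cKO. Among all probe sets 9.36% did so in NP CTR, 9.47% in NP cKO, 8.57% in AF CTR, and 11.6% in AF cKO. By the looser measure of lying above the control median on all 4 arrays, 16 members passed in NP CTR, 11 in NP cKO, 17 in AF CTR and 19 in AF cKO. Of all probe sets, 46.7% passed it in NP CTR, 47.9% in NP cKO, 49.5% in AF CTR and 51.4% in AF cKO. Signals of different probe sets are not comparable with each other, and each is read against the controls and against itself in other samples.

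**Figure D2:**
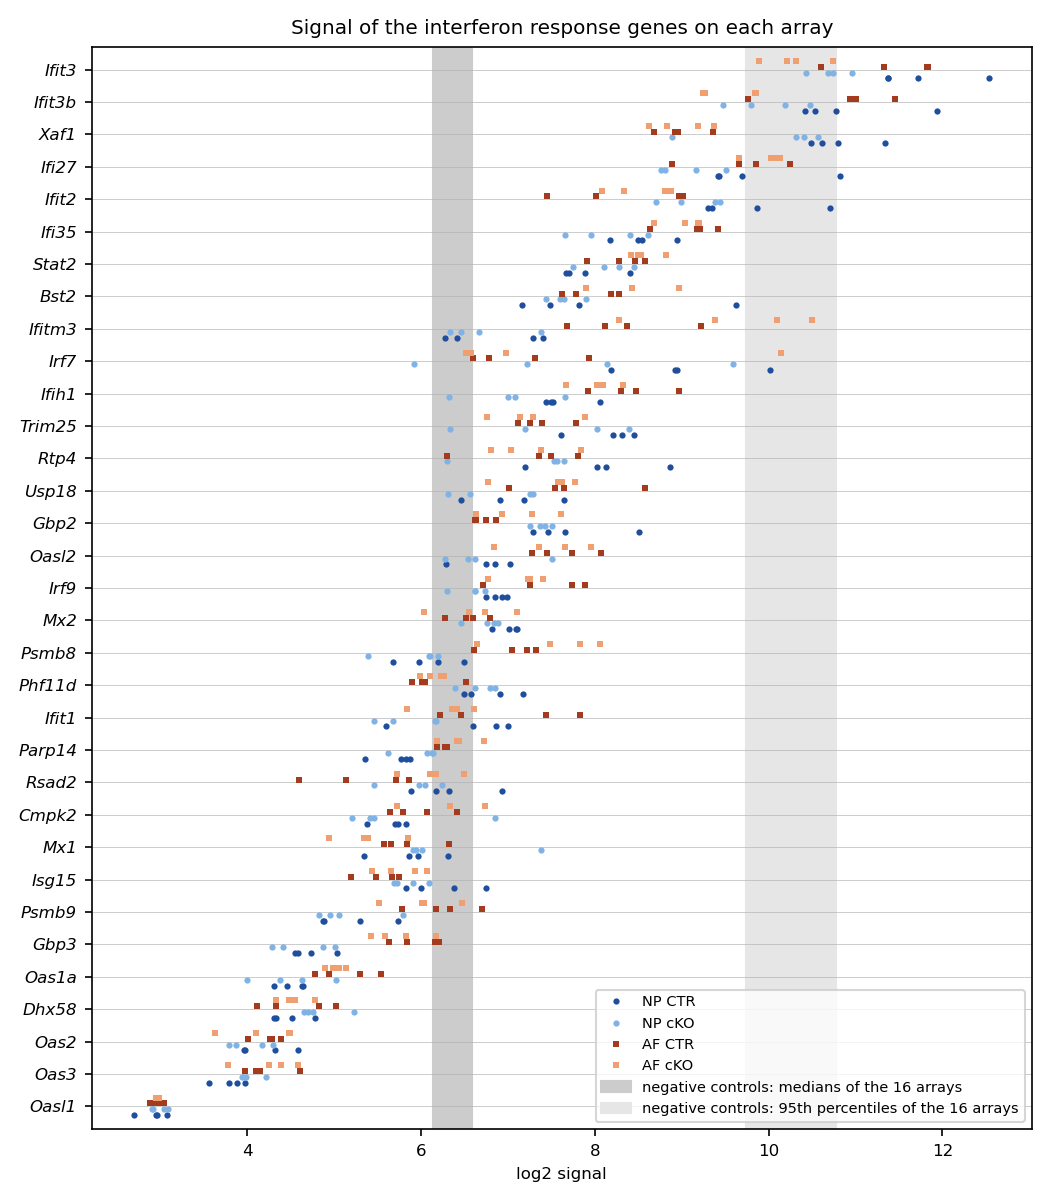
Log2 signal of the 33 members on each of the 16 arrays, 1 point per array, coloured by group (4 arrays each). The dark band spans the medians and the light band the 95th percentiles of the negative control probe sets over the 16 arrays. Ifit3 lies in or above the light band, and Oas1a, Oas2, Oas3, Oasl1 and Dhx58 lie under the dark band on every array.

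The IFIT proteins bind foreign RNA and hold it back from translation. Ifit3 was above the control 95th percentile on 15 of 16 arrays, counting 3 of 4 in AF cKO. Ifit3b was above it on 2 arrays in NP CTR, 1 in NP cKO, 3 in AF CTR and 1 in AF cKO. Ifit2 averaged 9.81 ± 0.66 (SD, n = 4) in NP CTR and 8.36 ± 0.76 in AF CTR, above the control median on every array. Ifit1 stayed near the control median, at 6.51 ± 0.63 in NP CTR and 6.99 ± 0.77 in AF CTR.

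Isg15, a ubiquitin-like protein joined to other proteins during the response, read 6.24 ± 0.41 in NP CTR and 5.52 ± 0.25 in AF CTR, around or under the control median. Usp18, the protease that removes Isg15 and damps receptor signalling, read 7.05 ± 0.50 and 7.69 ± 0.65. Of the dynamin-like GTPases, Mx1 read 5.87 ± 0.40 and 5.85 ± 0.34 and Mx2 7.01 ± 0.13 and 6.54 ± 0.21. The guanylate-binding proteins attack vacuoles that hold pathogens. Gbp2 was above the control median on all 16 arrays, and Gbp3 on 1 of 16. The OAS enzymes make a short RNA-like messenger that activates RNase L, and Oasl1 and Oasl2 are relatives of theirs. Oas1a, Oas2, Oas3 and Oasl1 were under the control median on every array, while Oasl2 was above it on all 8 AF arrays, 3 of 4 NP CTR and 2 of 4 NP cKO arrays.

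Among the transcription factors, Stat2 read 7.91 ± 0.34 in NP CTR and 8.31 ± 0.29 in AF CTR, and Irf9, its partner, 6.88 ± 0.10 and 7.40 ± 0.53. Irf7, which amplifies interferon production, read 9.02 ± 0.76 and 7.15 ± 0.60. The RNA sensor Ifih1 (MDA5) read 7.63 ± 0.29 and 8.42 ± 0.43, Trim25, a ubiquitin ligase of the sensing pathway, 8.14 ± 0.37 and 7.38 ± 0.29, and the sensor relative Dhx58 4.48 ± 0.22 and 4.57 ± 0.42. Rsad2 (viperin), which makes a chain-terminating nucleotide, was above the control median on 2 of 16 arrays, and its neighbour Cmpk2, a nucleotide kinase, on 4 of 16. Bst2 (tetherin), which holds virions at the cell surface, read 8.02 ± 1.10 in NP CTR and 7.97 ± 0.31 in AF CTR. Ifi35 was above the control median on all 16 arrays, with 8.54 ± 0.32 and 9.11 ± 0.34, and Rtp4 on 14 of 16, with 8.05 ± 0.69 and 7.24 ± 0.66.

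In control mice the members differed between NP and AF in both directions, without a common shift. Of the 33, 6 were higher in NP (Xaf1, Ifit2, Gbp2, Rsad2, Isg15 and Phf11d) and 7 were lower (Gbp3, Ifitm3, Psmb9, Psmb8, Oasl2, Ifih1 and Parp14) at an adjusted p under 0.05 in limma. That is 13 of 33 members, where 20.1% of all probe sets were called in the same comparison. The median difference of the members, NP minus AF, was -0.05, beside 0.04 over all probe sets, and 18 of the 33 were lower in NP, beside 47.2% of all probe sets. The 4 arrays of each compartment did not overlap for 7 members higher in NP and 8 lower, against 11.3% and 11.2% of all probe sets.

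Xaf1, a regulator of cell death, had log2 signals of 10.79, 10.49, 11.34 and 10.61 in NP CTR and of 8.69, 8.95, 9.36 and 8.92 in AF CTR; array values are given in the order of replicates 1 to 4 throughout. Every NP array was above every AF array. The difference was 1.83 (SE 0.31, adjusted p = 0.000365), or 3.56-fold.
Ifit2 read 9.30, 9.87, 10.71 and 9.35 in NP CTR and 7.45, 9.01, 8.96 and 8.01 in AF CTR. The groups again did not overlap, and the difference was 1.45 (SE 0.35, adjusted p = 0.00687). Gbp2 read 7.29, 7.66, 8.51 and 7.46 in NP CTR and 6.86, 6.62, 6.75 and 6.63 in AF CTR, a difference of 1.01 (SE 0.25, adjusted p = 0.00699). The AF values of Gbp2 lay close together just above the control medians, and NP CTR 3 was the highest NP array.

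The other 3 members higher in NP had signals near the control median. Rsad2 read 6.17, 5.88, 6.32 and 6.93 in NP CTR and 5.87, 5.71, 4.60 and 5.13 in AF CTR, a difference of 1.0 (SE 0.28, adjusted p = 0.0181). Isg15 read 6.38, 6.0, 5.82 and 6.75 in NP and 5.75, 5.66, 5.19 and 5.48 in AF, a difference of 0.72 (SE 0.22, adjusted p = 0.0279). Both had separate groups by narrow gaps. Phf11d, a zinc finger protein of lymphocytes and interferon-treated cells, read 6.90, 6.57, 6.49 and 7.17 in NP and 6.52, 6.01, 6.05 and 5.90 in AF. NP CTR 3 lay just below AF CTR 1, so the groups overlapped, and the difference was 0.67 (SE 0.20, adjusted p = 0.0239).

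Both genes of antigen processing were among the members lower in NP. The immunoproteasome subunit Psmb8 read 5.97, 6.19, 6.49 and 5.68 in NP CTR and 7.32, 6.60, 7.22 and 7.05 in AF CTR. Its partner Psmb9 read 4.87, 5.30, 5.74 and 4.88 in NP and 6.17, 5.78, 6.33 and 6.71 in AF. Neither gene's groups overlapped, and the differences were -0.97 (SE 0.28, adjusted p = 0.0215) and -1.05 (SE 0.27, adjusted p = 0.0104). Psmb8 was above the control median on 1 array of NP CTR and 4 of AF CTR. Psmb9 was above it on 0 arrays of NP CTR and 1 of AF CTR, so its signals were mostly under the control median.

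Ifitm3, a membrane protein that blocks virus entry, read 6.41, 7.29, 7.41 and 6.27 in NP CTR and 9.22, 8.36, 8.11 and 7.68 in AF CTR. All AF arrays were higher, and the difference was -1.50 (SE 0.42, adjusted p = 0.0165). Gbp3 read 4.58, 4.74, 4.55 and 5.03 in NP CTR and 6.21, 5.84, 6.16 and 5.63 in AF CTR, a difference of -1.24 (SE 0.22, adjusted p = 0.00062), opposite in direction to Gbp2. Gbp3 was above the control median on 0 arrays of NP CTR and 0 of AF CTR. Oasl2 read 6.29, 6.85, 7.02 and 6.74 in NP and 7.73, 7.28, 8.07 and 7.45 in AF, a difference of -0.91 (SE 0.28, adjusted p = 0.0293).

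Ifih1 read 7.52, 7.5, 8.06 and 7.44 in NP CTR and 8.30, 8.96, 8.48 and 7.92 in AF CTR. The highest NP array exceeded the lowest AF array, and the difference of -0.79 (SE 0.27) had an adjusted p of 0.0459. Parp14, an ADP-ribosyltransferase, read 5.35, 5.82, 5.77 and 5.88 in NP and 6.30, 6.28, 6.18 and 6.30 in AF, a difference of -0.56 (SE 0.19, adjusted p = 0.0418). Parp14 was above the control median on 0 arrays of NP CTR and 0 of AF CTR. With the replicate number as a block the adjusted p was 0.0563 for Ifih1 and 0.0532 for Parp14, so neither call held there.
Irf7, named after its values were seen, had the widest difference of any member, 1.86, with NP CTR signals of 8.94, 8.18, 10.02 and 8.93 and AF CTR signals of 6.78, 7.93, 6.60 and 7.31. The groups did not overlap, but its spread was wide (SE 0.73) and its adjusted p was 0.080.

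**Figure D3:**
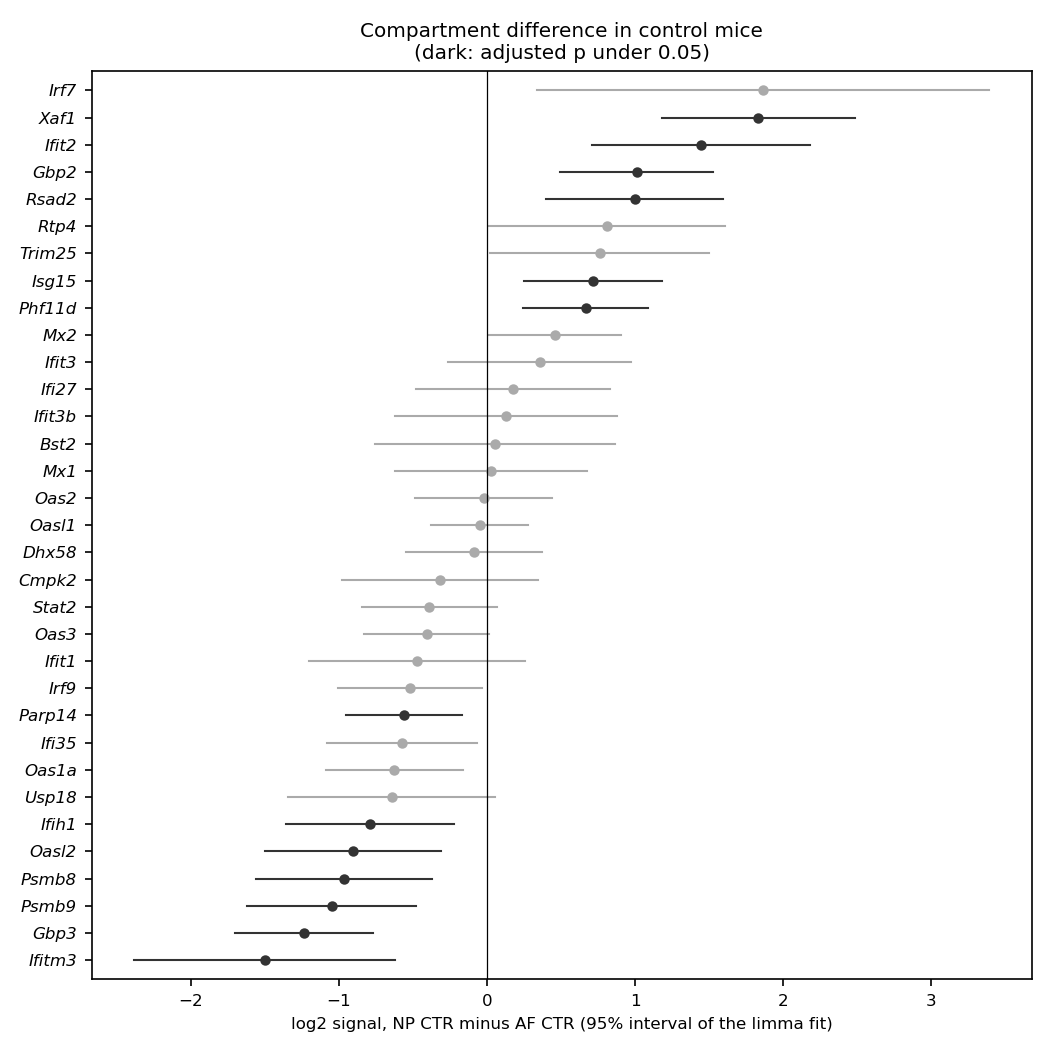
Difference in log2 signal between NP and AF of control mice for each of the 33 members, NP CTR minus AF CTR (points), with the 95% interval of the limma fit (lines; 4 arrays per group). Dark points have an adjusted p under 0.05; they lie on both sides of 0, from Ifitm3 at -1.50 to Xaf1 at 1.83.

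The calls for Xaf1, Gbp3, Ifit2, Gbp2 and Psmb9 held under every other fit tried that could give them a value, while those for the other 8 did not, and the count was 6 without NP CTR 1, without NP CTR 4 or without AF CTR 3. Beside these results, endothelial markers also differed between the compartments. Of 15, 11 were called lower in NP, where 2251 of the 22206 probe sets were. Their mean signal was 5.37 to 5.60 in NP CTR and 6.47 to 7.73 in AF CTR. Of 18 macrophage and monocyte markers 3 were called lower in NP, closer to the share of all probe sets. Their mean was 5.89 to 6.16 in NP CTR and 6.13 to 7.72 in AF CTR. The 7.72 was that of AF CTR 1, and the other AF CTR arrays lay at 6.13 to 6.46. No marker of either list was above the control 95th percentile on all 4 arrays of these groups. The part of these cells in the result was not tested.

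No member passed the threshold for genotype in NP. Of the 33 members 25 were lower in cKO and 8 higher, with a median change of -0.27, beside 50.0% of all probe sets lower and a median of 0.00. No member was called at an adjusted p under 0.05, where 0.122% of all probe sets were. The smallest adjusted p among members was 0.401. At an unadjusted p under 0.05, 5 members were lower and 0 higher, beside 2.81% of all probe sets lower and 1.78% higher. The labels name other thresholds, a fold of 1.75 together with p under 0.05 before adjustment, and these were met by 2 members, Ifit3 and Ifit3b, and by 1.18% of all probe sets.

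Ifit3 read 11.37, 11.37, 12.54 and 11.72 in NP CTR and 10.96, 10.43, 10.69 and 10.75 in NP cKO. Every cKO array was below every CTR array, and the mean difference was -1.04 (SE 0.29, adjusted p = 0.401), a 2.06-fold lower signal. Irf9 was the other member whose groups did not overlap, where 1.82% of all probe sets had separate groups with lower cKO signals and 1.11% with higher ones. It read 6.99, 6.75, 6.93 and 6.85 in NP CTR and 6.74, 6.30, 6.62 and 6.62 in NP cKO, a small difference of -0.31 (adjusted p = 1.0); it is named because of that count.

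Ifit3b read 10.78, 10.53, 11.94 and 10.42 in NP CTR and 10.48, 9.47, 9.80 and 10.18 in NP cKO, a difference of -0.93 (SE 0.36, adjusted p = 0.886). Here NP CTR 4 lay below NP cKO 1, so the groups overlapped. Ifi27, a mitochondrial and nuclear-membrane protein of the response, read 9.43, 9.42, 10.83 and 9.69 in NP CTR and 8.76, 8.80, 9.51 and 9.16 in NP cKO, a difference of -0.79 (SE 0.31, adjusted p = 0.917). Xaf1 read 10.57, 8.89, 10.31 and 10.41 in NP cKO, a difference of -0.77 (SE 0.31, adjusted p = 0.942) from the NP CTR values above. For Xaf1 NP cKO 2 stood far below the other 3 cKO arrays. Ifih1 read 7.08, 6.32, 7.0 and 7.66 in NP cKO, -0.61 (SE 0.27, adjusted p = 1.0) from NP CTR.

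By role, all 4 IFIT genes had lower means in NP cKO, by 0.65 to 1.04, with a median change of -0.80. Both immunoproteasome subunits had small differences, -0.14 and -0.04. In the OAS family 3 of 5 had higher means and 2 lower, none by more than 0.23. Among the transcription factors Irf7 had a change of -1.30 with an adjusted p of 1.0, its NP cKO arrays spreading from 5.92 to 9.59, while Stat2 changed by 0.23. Mx1 had the largest positive change, 0.44, for which NP cKO 3 at 7.38 stood apart from the other cKO arrays at 5.91 to 6.01.

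The lower means in NP were found mainly among the brighter members, by a loose limit that does not set a member above background. Of the 19 members whose mean over 16 arrays exceeded the highest control median, 17 were lower in NP cKO and 2 higher. Of the other 14, 8 were lower and 6 higher. The same split was not made for all probe sets. Single arrays stood out. NP CTR 3 was the highest of its group for 19 of 33 members, against 31.5% of all probe sets, and read a median of 0.54 above the mean of the other 3 control arrays. NP cKO 2 was the lowest of its group for 16 of 33 members, against 31.8% of all probe sets.

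Without NP CTR 3 the changes were -0.78 for Ifit3, -0.59 for Ifit3b, -0.46 for Ifi27 and -0.59 for Xaf1, each with an adjusted p of 1.0, and 21 members were lower with a median of -0.22. Leaving out NP cKO 2 gave -0.38 for Xaf1, and 23 members were lower. Without both arrays, which were picked after seeing the members' own values, the median was -0.08 with 20 members lower, and the changes were -0.69 for Ifit3, -0.42 for Ifit3b, -0.37 for Ifi27 and -0.20 for Xaf1. The mean over 18 macrophage and monocyte markers was 5.89 to 6.16 in CTR and 5.98 to 6.18 in cKO, and 0 of the 18 were called by limma, with 0 at an unadjusted p under 0.05.

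**Figure D4:**
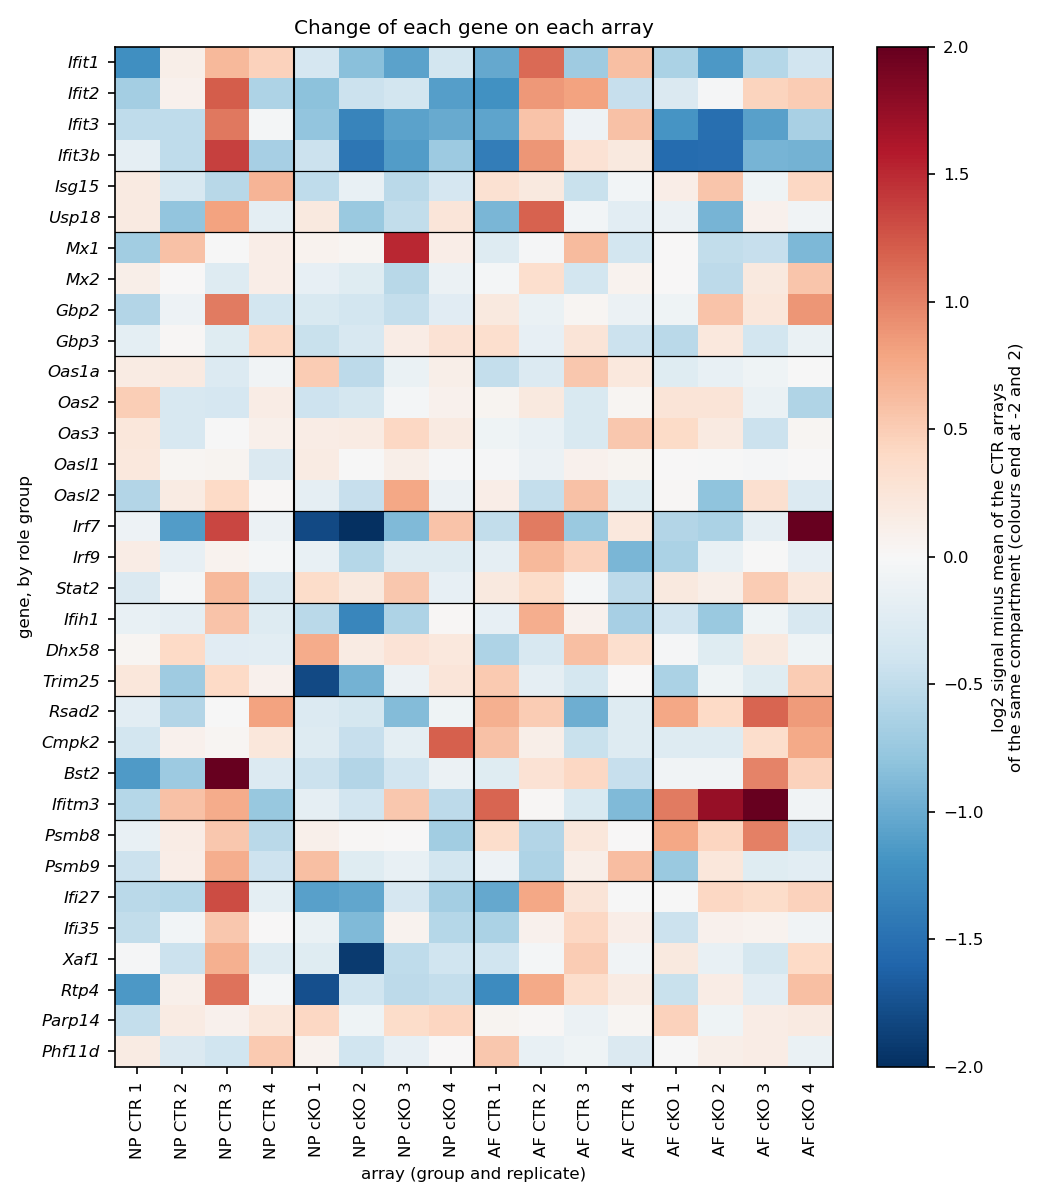
Change of each member (rows, grouped by role between horizontal lines) on each array (columns). Colour gives the log2 signal minus the mean of the 4 CTR arrays of the same compartment, or for a CTR array minus the mean of the other 3; colours end at -2 and 2. The IFIT rows are blue on every NP cKO array, and NP CTR 3 is red for most rows.

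Array by array, the members below the NP control mean numbered 22, 28, 22 and 20 of 33 in NP cKO 1 to 4, with median changes of -0.24, -0.40, -0.20 and -0.12. The control arrays, each set against the other 3, had 22, 18, 10 and 19 members below 0, with medians of -0.19, -0.05, 0.54 and -0.04. NP cKO 1, 3 and 4 were thus within the range of the control arrays by the count of members, and NP cKO 2 was outside it. By the median, NP cKO 1, 2 and 3 lay below every control array, NP cKO 3 only narrowly, and NP cKO 4 lay within their range. The 4 IFIT genes were below 0 on each of the 4 NP cKO arrays, and also on NP CTR 1. In AF cKO 1 to 4 the members below 0 numbered 20, 19, 17 and 17, against 20, 13, 15 and 17 in AF CTR 1 to 4.

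In AF, 17 members had higher means in cKO and 16 lower, with a median of 0.02, and 53.6% of all probe sets were lower. No member was called, where 0.0991% of all probe sets were, and the smallest adjusted p was 0.185. At an unadjusted p under 0.05 there were 2 higher and 2 lower, beside 4.94% and 5.69% of all probe sets. The thresholds of the labels were met by 1 member higher, Ifitm3, and 2 lower, Ifit3 and Ifit3b, beside 3.49% of all probe sets. No member's groups were separate, where 2.54% of all probe sets had separate groups with lower and 1.79% with higher cKO signals.

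The copies Ifit3 and Ifit3b had the most negative changes of the members in AF; in NP that of Irf7 was more negative. Ifit3 read 10.60, 11.82, 11.32 and 11.84 in AF CTR and 10.21, 9.89, 10.32 and 10.74 in AF cKO, a difference of -1.11 (SE 0.29, adjusted p = 0.185), or 2.15-fold. Ifit3b read 9.76, 11.45, 11.01 and 10.94 in AF CTR and 9.25, 9.27, 9.86 and 9.84 in AF cKO, a difference of -1.24 (SE 0.36, adjusted p = 0.233). For both genes the only overlap came from AF CTR 1, the lowest control array for each and the control array with high neutrophil markers. Without AF CTR 1 both were called, Ifit3 at -1.37 (adjusted p = 0.0287) and Ifit3b at -1.58 (adjusted p = 0.0307). Leaving out the lowest control array widens both differences by construction. It also leaves neutrophil means of 6.28 to 7.40 in AF CTR against 8.77 to 12.16 in AF cKO. Genotype and neutrophil markers cannot be told apart among those arrays. Over all alternatives tried the adjusted p ran from 0.0287 to 0.544 for Ifit3 and from 0.0307 to 0.552 for Ifit3b.

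Ifitm3 went the other way, reading 9.38, 10.09, 10.50 and 8.28 in AF cKO against 7.68 to 9.22 in AF CTR. Its difference was 1.22 (SE 0.42, adjusted p = 0.323), a 2.33-fold higher signal, with AF cKO 4 inside the control range. Rsad2 read 6.10, 5.72, 6.5 and 6.18 in AF cKO against 4.60 to 5.87 in AF CTR, a difference of 0.80 (SE 0.28, adjusted p = 0.339) at signals around and under the control median. Gbp2 read 6.63, 7.28, 6.94 and 7.61 in AF cKO, 0.40 above AF CTR, and Ifi27 read 9.66, 10.08, 10.03 and 10.13, 0.31 above its AF CTR signals of 8.89, 10.25, 9.86 and 9.66. All 4 genes of restriction at membranes and by nucleotides had higher means, with a median of 0.56, and of the IFIT family 3 of 4 had lower means.

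The members named for the control compartments had overlapping CTR and cKO arrays in both. In NP cKO, Ifit2 read 8.99, 9.38, 9.44 and 8.70, Gbp2 7.43, 7.37, 7.25 and 7.5, and Rsad2 6.05, 5.97, 5.46 and 6.24. Isg15 read 5.72, 6.08, 5.69 and 5.90 there, and Phf11d 6.85, 6.39, 6.62 and 6.79. All 5 had lower means than in NP CTR, by 0.12 to 0.68, each with an adjusted p of 1.0. In AF cKO, Xaf1 read 9.18, 8.83, 8.63 and 9.38, Ifit2 8.08, 8.34, 8.80 and 8.87, Isg15 5.65, 6.07, 5.44 and 5.93, and Phf11d 6.10, 6.23, 6.26 and 5.99. These 4 differed from AF CTR by 0.02 to 0.25.

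Of the members lower in NP, Ifitm3 read 6.67, 6.46, 7.38 and 6.33 in NP cKO, within the range seen in NP CTR. Gbp3 read 4.28, 4.41, 4.87 and 5.01 in NP cKO and 5.42, 6.17, 5.59 and 5.82 in AF cKO. Psmb9 read 5.79, 4.95, 5.06 and 4.83 in NP cKO and 5.51, 6.47, 6.01 and 6.03 in AF cKO. Both genes had small changes in each compartment, from -0.04 to -0.24. Psmb8 read 6.19, 6.10, 6.08 and 5.39 in NP cKO and 7.82, 7.48, 8.05 and 6.64 in AF cKO, where 3 of 4 arrays exceeded every AF CTR array (change 0.45, SE 0.28, adjusted p = 0.581). Oasl2 read 6.54, 6.27, 7.5 and 6.61 in NP cKO and 7.65, 6.83, 7.95 and 7.36 in AF cKO. Parp14 read 6.13, 5.62, 6.07 and 6.14 in NP cKO and 6.73, 6.18, 6.42 and 6.44 in AF cKO, with higher means in both by 0.28 and 0.18. Ifih1 read 8.03, 7.67, 8.33 and 8.09 in AF cKO, -0.39 from AF CTR.

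Markers of several other cell types had higher means in AF cKO than in AF CTR, and those of others did not. All 16 neutrophil and granulocyte markers had higher means in cKO, with a median of 2.84, and 5 of them were above the control 95th percentile on all 4 AF cKO arrays. So had 14 of 18 macrophage and monocyte markers (mean signal 6.13 to 7.72 in CTR and 6.63 to 8.07 in cKO), 6 of 6 measured erythroid and 15 of 16 skeletal muscle markers, though 0 of these lists' genes were called by limma. At an unadjusted p under 0.05, 15 of the 16 neutrophil and 5 of the 18 macrophage markers were higher, beside 4.94% of all probe sets. So were 5 of the 6 erythroid and 11 of the 16 skeletal muscle markers. Higher means were also seen for 14 of 15 endothelial and 9 of 10 osteoclast markers. Of the B and T lymphocyte markers 3 had higher and 11 lower means (median -0.15), and of the plasmacytoid dendritic cell markers 4 higher and 5 lower (median -0.05). In AF cKO 1 to 4 the neutrophil mean was 10.96, 10.84, 12.16 and 8.77, and Ifitm3 was likewise highest in AF cKO 3 and lowest in AF cKO 4. The part of these cells in the AF values was not tested. Without the AF CTR 1 and AF cKO 3 arrays, the highest of their groups in the neutrophil markers, Ifit3b was called at -1.68 (adjusted p = 0.0422). These were also the lowest AF CTR and the highest AF cKO array for Ifit3b, at 9.76 and 9.86. The neutrophil means of the remaining arrays still did not overlap, at 6.28 to 7.40 in CTR and 8.77 to 10.96 in cKO. This fit therefore does not set the neutrophil markers aside.

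**Figure D5:**
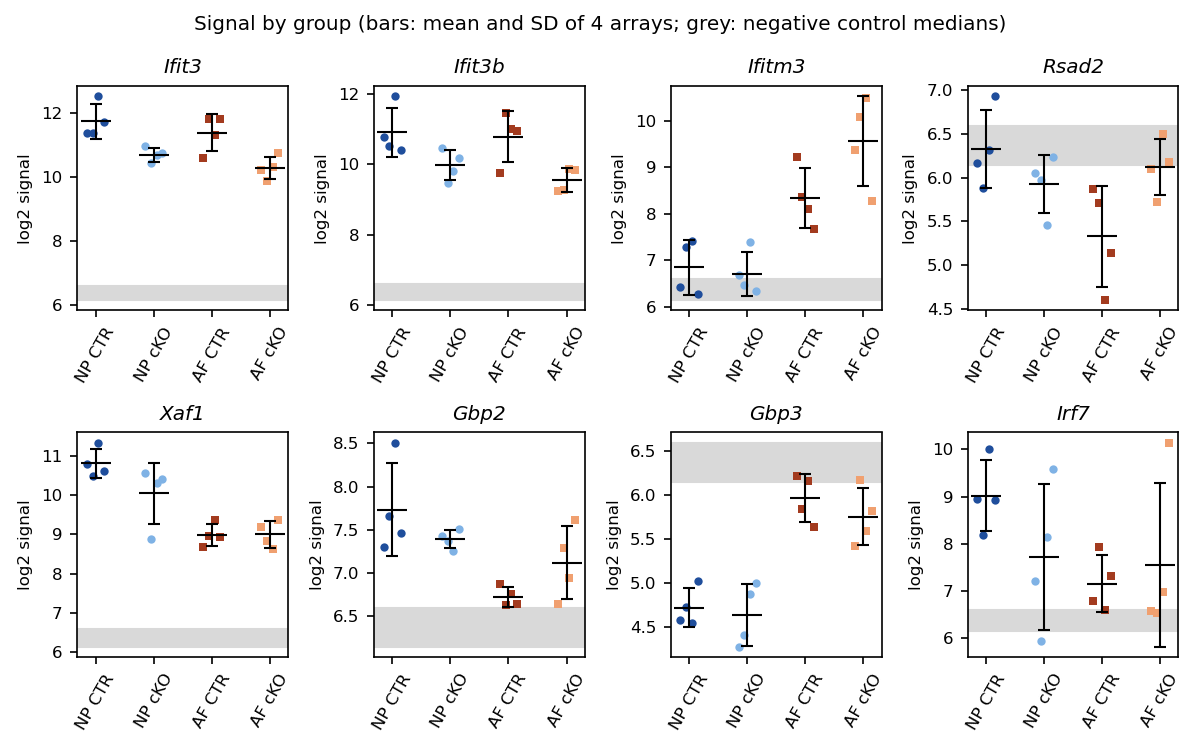
Log2 signal of 8 members on each array by group (points), with the mean and SD of 4 arrays (bars); each panel has its own vertical axis, and the grey band spans the negative control medians. Ifit3 and Ifit3b lie lower in cKO of both compartments, Ifitm3 lies higher in AF, and Irf7 has single arrays far from their group.

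When the difference of the genotype changes was itself tested, no member was called, nor was any probe set of the table (0 of 22206). NP change minus AF change was below 0 for 20 members and above for 13, with a median of -0.12, beside 48.4% of all probe sets below 0. The smallest adjusted p among members was 0.732, and 4 were lower and 0 higher at an unadjusted p under 0.05, beside 3.17% and 3.57% of all probe sets. The 4 were Rsad2 at -1.19 (SE 0.40), Ifi27 at -1.10 (SE 0.44), Ifitm3 at -1.35 (SE 0.59) and Gbp2 at -0.74 (SE 0.35). The thresholds of the labels were met by 3 members, beside 4.40% of all probe sets. For Ifit3 the changes in the compartments were close, at -1.04 and -1.11, with a difference of 0.06 and a 95% interval from -0.81 to 0.93.

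The genes around the members, on lists of the interferon pathway, gave no call for genotype either: of 121 measured genes 0 were called by limma in NP and 0 in AF. Lower means in cKO were seen for 76 of the 121 in NP (62.8%) and 59 in AF (48.8%), beside 50.0% and 53.6% of all probe sets. Of the 51 further interferon-induced genes 36 were lower in NP and 21 in AF, and of the 19 interferon genes 10 and 17. At an unadjusted p under 0.05, 4 were lower and 0 higher in NP, beside 2.81% and 1.78% of all probe sets, and 5 were lower and 13 higher in AF, beside 5.69% and 4.94%. Ifna12 had the smallest p in NP, at -0.67 (adjusted p = 0.710). In AF it was Trim21, an antibody receptor in the cytosol, at 1.05 (adjusted p = 0.133), followed by Trim56 at 0.77 and the exonuclease Isg20 at 0.72. Of the interferon genes themselves, none of 19 measured was above the control 95th percentile on all 4 arrays of any group, and Ifnb1 read 5.44 in NP CTR and 5.92 in AF CTR on average.

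Between the control compartments 8 of the 121 were called higher in NP and 20 lower, beside 2211 and 2251 of the 22206 probe sets. Taken in either direction, the share of the lists was close to the 20.1% of all probe sets, but the lists leaned to lower signals in NP. Of the 121, 85 (70.2%) were lower in NP, with a median of -0.30, beside 47.2% of all probe sets and a median of 0.04. All 6 receptor chains had lower means in NP, and 3 were called: Ifnar1 at -1.34 and Ifnar2 at -0.83, the type I receptor, and Ifngr2 at -1.61 of the type II receptor. The receptor kinases followed, Tyk2 at -1.27 and Jak1 at -0.94, as did the inhibitor Socs1 at -1.68. Class I antigen presentation had 3 genes called lower in NP, among them H2-D1 at -2.15 and H2-K1 at -1.32, beside Psmb8 and Psmb9 among the members, and 1 higher, Tap2 at 0.78. Of the further interferon-induced genes 7 of 51 were called lower, with Ly6e at -6.10, and 4 higher, with Isg20 at 1.71 and Trim21 at 1.09.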

How the data were processed

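Total RNA was labelled with the GeneChip WT Plus kit and hybridised to Affymetrix arrays, per the labels' protocols. The authors deposited log2 signals, normalized by sst-RMA per the labels' descriptions; the submitters' processing notes name Transcriptome Analysis Console, version not given. Of the 28846 probe sets, 6640 control probe sets were left out. Such normalization brings the arrays towards one distribution, so a shift of all genes together could go unseen, and the number of arrays limits the precision. The medians of the probe sets tested still ran from 6.66 to 6.89 between arrays.

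The 22206 other probe sets were fitted together in limma 3.58.1 (R 4.3.3) as 4 group means over 16 arrays, with default eBayes. P-values were adjusted by Benjamini-Hochberg over all of them. Groups came from the labels. Values are means ± SD over 4 arrays; differences are on the log2 scale. Every array's value is given for members among the 4 smallest p of a comparison, called in one, or among the 4 highest means. The members and lists were chosen with earlier results of these data known. Motifs were searched in RefSeq promoter windows (GRCm38.p6) with Python 3.11.15. Fits were tested on simulated data. NP and AF of a number come from 1 animal; after subtracting group means, the r between a mouse's 2 arrays lay between -0.29 and 0.35, over 0.1 in 3 of 8 pairs. Alternatives covered scaling, dim probe sets, moderation, weights, blocks and left-out arrays.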

Additional observations from a re-analysis of the deposited data

Results flagged for a closer look

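Single arrays stood apart from the other 3 of their group in 9 of 136 groups of 4 values examined, where chance gives about 1 in 20. In NP cKO, Mx1 read 7.38 on array 3 against 5.91 to 6.01, Oas3 read 4.22 on array 3 against 3.94 to 3.98, and Cmpk2 read 6.85 on array 4 against 5.20 to 5.46. Psmb8 read 5.39 on NP cKO 4 against 6.08 to 6.19, Xaf1 8.89 on NP cKO 2 against 10.31 to 10.57, Rtp4 6.29 on NP cKO 1 against 7.52 to 7.65, and Parp14 5.62 on NP cKO 2 against 6.07 to 6.14. In NP CTR, Ifih1 read 8.06 on array 3 against 7.44 to 7.52. Irf7 read 10.14 on AF cKO 4 against 6.52 to 6.98, the widest gap in signal of these.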

How the results depend on the processing

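No change reversed under any alternative for a member called in its comparison or among the 4 smallest p there. The other changes printed here were not tracked in this way. The medians near 0 did change sign: that in AF ran from -0.09 to 0.06, with 14 to 20 members lower when 1 array was left out, and that between the control compartments was 0.08 with median centring and 0.13 without dim probe sets. Leaving out dim probe sets keeps 17 members by construction: 15 were then lower in NP (median -0.61), 8 lower in AF, 13 lower in the difference of changes (median -0.54), and 6 called and 7 lower between the control compartments. The labels' thresholds called 2 members in NP, 3 in AF and 3 in the difference. Without the AF CTR 1 and AF cKO 3 arrays, an alternative chosen after seeing the data, 1 member was called in AF; without AF cKO 2 and 4, also added, none was. Without NP CTR 3 and NP cKO 2, also added and picked by the members' own values, the NP median was -0.08. Leaving out 1 array at a time gave 0 to 2 called in AF, 6 to 12 between control compartments, and 0 in NP.

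With the replicate number as a block, Ifih1 (adjusted p = 0.0563) and Parp14 (adjusted p = 0.0532) lost their calls between the control compartments, and 13 members were called. With the animal as a random block (consensus correlation 0.04) no call was lost and 14 members were called. Neither block gave a call in NP, in AF or in the difference of changes. Median centring moved the median of all probe sets in that comparison from 0.04 to 0.16, and Oasl2, Ifih1 and Parp14 lost their calls (adjusted p 0.0521, 0.0905 and 0.0987). Calls lost without single arrays were those of Isg15 (adjusted p up to 0.106), Oasl2 (0.0974), Ifih1 (0.144), Rsad2 (0.0717), Ifitm3 (0.0631), Psmb8 (0.0741), Parp14 (0.137) and Phf11d (0.0885).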
